A study of Mus musculus with 9 samples.

Results

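The 48 genes described here encode the working parts of the lysosome: its membrane proteins, its acid hydrolases and their helper proteins, the proton pump that acidifies it, and the TFEB family of transcription factors that control many of these genes. They were taken by name from the deposited table of gene levels, where each was found among 25239 genes, and all 48 were among the 12611 genes tested. Polyadenylated RNA was sequenced from mouse cortical astrocytes in primary culture, glia taken from the cortex of P4 pups (postnatal age 4 days) and kept in medium with serum. In the day 3 group, a 3 h exposure to 200 µM hydrogen peroxide was ended by washing, and cells were collected 72 h later. The day 1 group had the same exposure and was collected 24 h after the wash. The control group carried no hydrogen peroxide treatment in its labels, which give no harvest time for it. Each group had 3 libraries, and since the labels do not say whether these were separate cultures, p-values measure the spread between libraries, which may be technical. The series title concerns collagen that astrocytes make after hydrogen peroxide and neuronal death in stroke. No strain, sex or transgene is named in the labels.

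Lysosomes are acidic vesicles in which enzymes break down proteins, glycans, lipids and nucleic acids delivered by endocytosis and autophagy. A proton pump, the V-ATPase, keeps them acidic, and heavily glycosylated proteins such as LAMP1 line the membrane and shield it from the enzymes. The transcription factors TFEB and TFE3 are held in the cytosol when nutrients are plentiful, and on starvation or lysosomal stress they enter the nucleus and bind short palindromic DNA elements in the promoters of lysosomal genes. Astrocytes take up and degrade debris and neurotransmitter receptors, and inherited loss of single lysosomal enzymes is known in humans as a cause of storage diseases that affect the brain.

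The promoters are shown first because the TFEB family is known for binding them. RefSeq (GRCm38.p6) gave a promoter, 250 bases before to 50 after the annotated start, for 43 of the 48 genes, and not for Ctsb, Ctsh, Asah1, Atp6v1b2 and Atp6v1h. The six-letter palindrome CACGTG, which reads the same on both strands, was found in promoters of 15 of the 43 genes (34.9%), against 11.8% of the 9950 tested genes with a promoter and 7.15% of all 32851 promoters. A longer form with T before and A after these letters, which contains the shorter one, was found for 7 genes (16.3%), against 2.26% of the tested genes and 0.974% of all promoters. The 7 genes were Cln3, Atp6v0d1, Gla, Ctsd, Atp6v1a, Mcoln1 and Ctsa. The 4 of them with the largest day 1 changes are printed from 250 bases before the start to 30 after it, 5′ to 3′ on the strand of the gene, which is the minus strand for all 4. Capitals mark CACGTG, with the flanking T and A where both are present. The regions are chr7:126583207-126583486 for Cln3, chr8:105566035-105566314 for Atp6v0d1, chrX:134600976-134601255 for Gla and chr7:142387798-142388077 for Ctsd.
Cln3: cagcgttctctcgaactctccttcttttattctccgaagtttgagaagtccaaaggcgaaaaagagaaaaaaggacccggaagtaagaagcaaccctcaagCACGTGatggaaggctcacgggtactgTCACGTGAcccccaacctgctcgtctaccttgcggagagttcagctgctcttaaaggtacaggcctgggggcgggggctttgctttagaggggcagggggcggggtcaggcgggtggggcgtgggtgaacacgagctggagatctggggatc
Atp6v0d1: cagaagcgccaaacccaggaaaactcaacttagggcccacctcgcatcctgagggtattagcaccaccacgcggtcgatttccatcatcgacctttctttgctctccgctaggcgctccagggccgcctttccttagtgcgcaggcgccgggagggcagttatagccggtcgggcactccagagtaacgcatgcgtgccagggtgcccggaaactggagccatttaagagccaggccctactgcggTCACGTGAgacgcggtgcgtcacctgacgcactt
Gla: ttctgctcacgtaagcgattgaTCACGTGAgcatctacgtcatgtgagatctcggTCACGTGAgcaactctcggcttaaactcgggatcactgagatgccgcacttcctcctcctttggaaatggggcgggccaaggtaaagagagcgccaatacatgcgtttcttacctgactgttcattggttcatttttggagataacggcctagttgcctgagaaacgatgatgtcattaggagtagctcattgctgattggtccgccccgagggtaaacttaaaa
Ctsd: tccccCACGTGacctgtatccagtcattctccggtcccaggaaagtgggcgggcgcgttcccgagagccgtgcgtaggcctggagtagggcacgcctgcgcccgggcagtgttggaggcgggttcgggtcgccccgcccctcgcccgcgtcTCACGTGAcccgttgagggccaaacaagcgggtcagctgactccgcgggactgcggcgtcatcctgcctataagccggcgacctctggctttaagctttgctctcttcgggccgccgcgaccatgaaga
Cln3 has a second annotated start whose promoter holds no CACGTG, and the one printed belongs to a start inside the gene. Counting back from the start, the first C of the palindrome lies at positions -149 and -121 in Cln3, the second of these being the longer form. In Atp6v0d1 it lies at -3, across the start itself, whereas in Gla both copies lie near the far end, at -227 and -194. In Ctsd the shorter form lies at -245 and the longer one at -98. A match describes letters only. The printed genes did not share a direction on day 1: Atp6v0d1, Gla and Ctsd were higher than in control and Cln3 was lower. Of the 15 genes with CACGTG, 6 were higher and 3 lower on day 1 (median log2 change 0.05), and of the 28 promoter-bearing genes without it, 13 were higher and 13 lower (median 0.04). Of the 7 genes with the longer form, 5 were higher and 1 was lower (median 0.16). For comparison, the day 1 share in each direction was 31.1% of the 12611 genes tested. For the 48 genes it was 45.8% higher and 35.4% lower. A link between the motif and the direction of change was not tested.

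Library totals worked out from the deposited values were 23032594 to 38414668 reads, and the 48 genes had 347 to 87826 reads each per library. Rn45s, the precursor of ribosomal RNA, held 7.67% to 11.9% of the reads, most in control replicate 1 and day 3 replicate 2. All 10 astrocyte markers were present, with Gfap at 1343, 1328 and 1329 FPKM on day 3, 1292, 1265 and 1148 FPKM on day 1 and 1479, 1468 and 1531 FPKM in control. FPKM are reads scaled by gene length and library total, so levels of different genes can be set side by side. Fold changes were fitted on log2(FPKM + 0.1) after a rescaling between libraries and understate changes of low genes. A gene is called higher or lower at a Benjamini-Hochberg adjusted p under 0.05 from limma, over all genes tested. Both hydrogen peroxide groups are set against the same 3 control libraries, so their changes are not independent of each other.

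Most of the 48 genes were well expressed. In control, 8 averaged at least 100 FPKM, 34 lay between 10 and 100 FPKM and 6 were under 10 FPKM, with a median of 42.7 FPKM against 9.73 FPKM over all genes tested. Ctsd, the aspartic protease cathepsin D, came first and alone made up 20.7% of the summed level, and with Psap and Lamp1 the leading 3 genes made up 45.9%. Summed over the 48 genes, the level was 1.58%, 1.55% and 1.54% of the library's summed FPKM on day 3, 1.46%, 1.46% and 1.43% on day 1, and 1.45%, 1.46% and 1.44% in control. The 3 day 3 libraries lay above all others, while day 1 and control overlapped. Without Ctsd, Psap and Lamp1 the share was 0.841%, 0.818% and 0.814% on day 3, 0.819%, 0.811% and 0.798% on day 1 and 0.789%, 0.782% and 0.780% in control, so that day 3 then overlapped day 1 and both lay above control. The protease share was 0.604% ± 0.0104 on day 3, 0.531% ± 0.00417 on day 1 and 0.523% ± 0.00671 in control (SD, n = 3 each). The share of activator and cofactor proteins was lowest on day 1, at 0.276% ± 0.00713 on day 3, 0.218% ± 0.00460 on day 1 and 0.276% ± 0.00408 in control. The proton pump share was 0.0854% ± 0.00192 on day 3, 0.101% ± 0.00134 on day 1 and 0.0827% ± 0.00152 in control, with the day 1 libraries above all others.

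**Figure D1:**
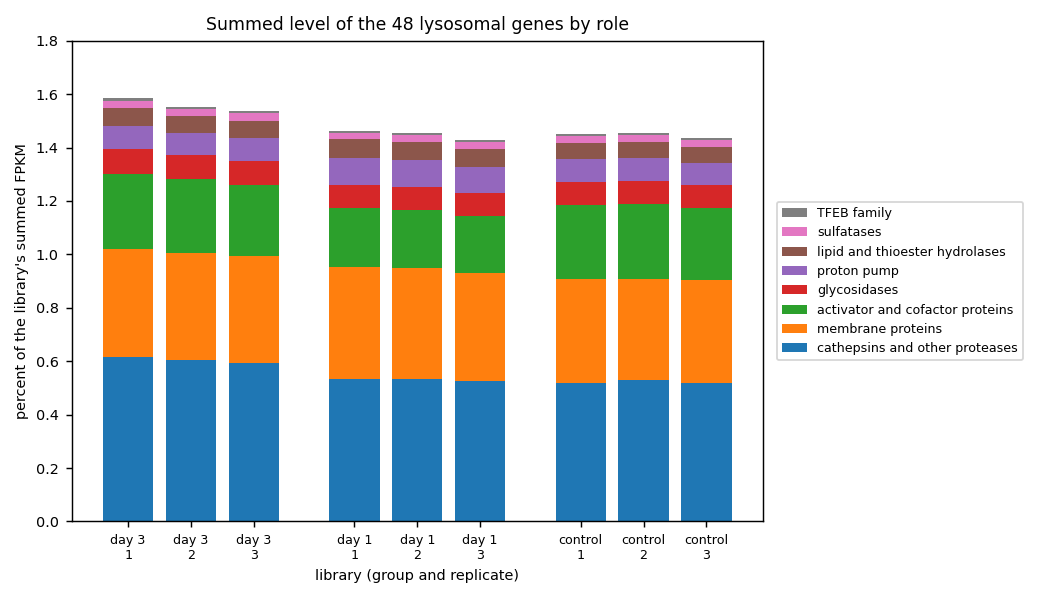
Summed FPKM of the 48 genes as a percent of each library's summed FPKM (y axis, from 0), one bar per library, stacked by role. The day 3 bars reach 1.54% to 1.58%, above the day 1 bars at 1.43% to 1.46% and the control bars at 1.44% to 1.46%.

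On day 1 the lysosomal genes moved both ways. Set against control, 22 of the 48 genes were higher (45.8%), 17 were lower (35.4%) and 9 did not pass. Over all genes tested, 31.1% were higher and 31.1% lower, 62.2% in either direction. After rescaling, the day 1 and control libraries of 40 genes did not overlap, 23 with day 1 above and 17 with it below, against 33.6% each way and 67.2% in either direction over all genes tested. The changes were small: the median log2 change of the 48 was 0.05, against -0.00 for all genes tested, and the called genes among the 48 changed by a median of 1.18-fold, against 1.22-fold for all called genes. Only 12 of the 39 called genes changed by at least 1.25-fold and 3 by at least 1.5-fold, while 9 changed by less than 1.1-fold. The proton pump subunits and most membrane proteins among the 48 genes were higher, Tfeb and Tfe3 were lower, and the hydrolases were divided. With quantile normalization the split became 18 higher and 22 lower and the median -0.01.

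Day 3 showed a smaller difference that went one way. Against control, 13 of the 48 genes were higher (27.1%), beside 7.37% of all genes tested, and 0 were lower, beside 6.45%, with 13.8% of all genes called in either direction. The day 3 libraries lay above all control libraries for 26 genes and below them for 0, beside 17.8% and 14.8% of all genes tested and 32.6% in either direction. By limma at an unadjusted p under 0.05, 25 genes were higher and 0 lower, and by limma-voom on the recovered reads 20 were higher and 0 lower. The median log2 change was 0.08, against 0.01 over all genes tested, and Ctsk was the one gene past 1.25-fold. The 13 were Lamp2, Scarb2, Laptm4a, Ctsb, Ctsc, Ctsd, Ctsh, Ctsk, Tpp1, Ids, Asah1, Lipa and Atp6v1h. The count fell to 8 without control replicate 3, to 8 without day 3 replicate 1 and to 8 on the values as deposited, with 0 lower each time. The calls lost as deposited were those of Ctsb, Ctsc, Ids, Lipa and Atp6v1h.

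Between the 2 days, 21 genes were higher on day 3 than on day 1, beside 27.9% of all genes tested, and 16 were lower, beside 28.4%, with 56.2% of all genes called. The libraries of the 2 days did not overlap for 40 genes, 23 with day 3 above and 17 with it below, beside 31.3% and 31.5% of all genes tested and 62.8% in either direction. The median log2 difference was 0.04, against 0.00 over all genes tested. Higher on day 3 than on day 1 were 6 of 11 proteases, the activator genes Psap and Gm2a and the TFEB family genes Tfeb and Tfe3. Lower were 4 of 5 proton pump genes and 4 of 7 membrane protein genes. Of these membrane protein genes, Laptm4a turned its sign with quantile normalization, as Ctsd did among the proteases. With quantile normalization 25 genes were higher and 14 lower.

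**Figure D2:**
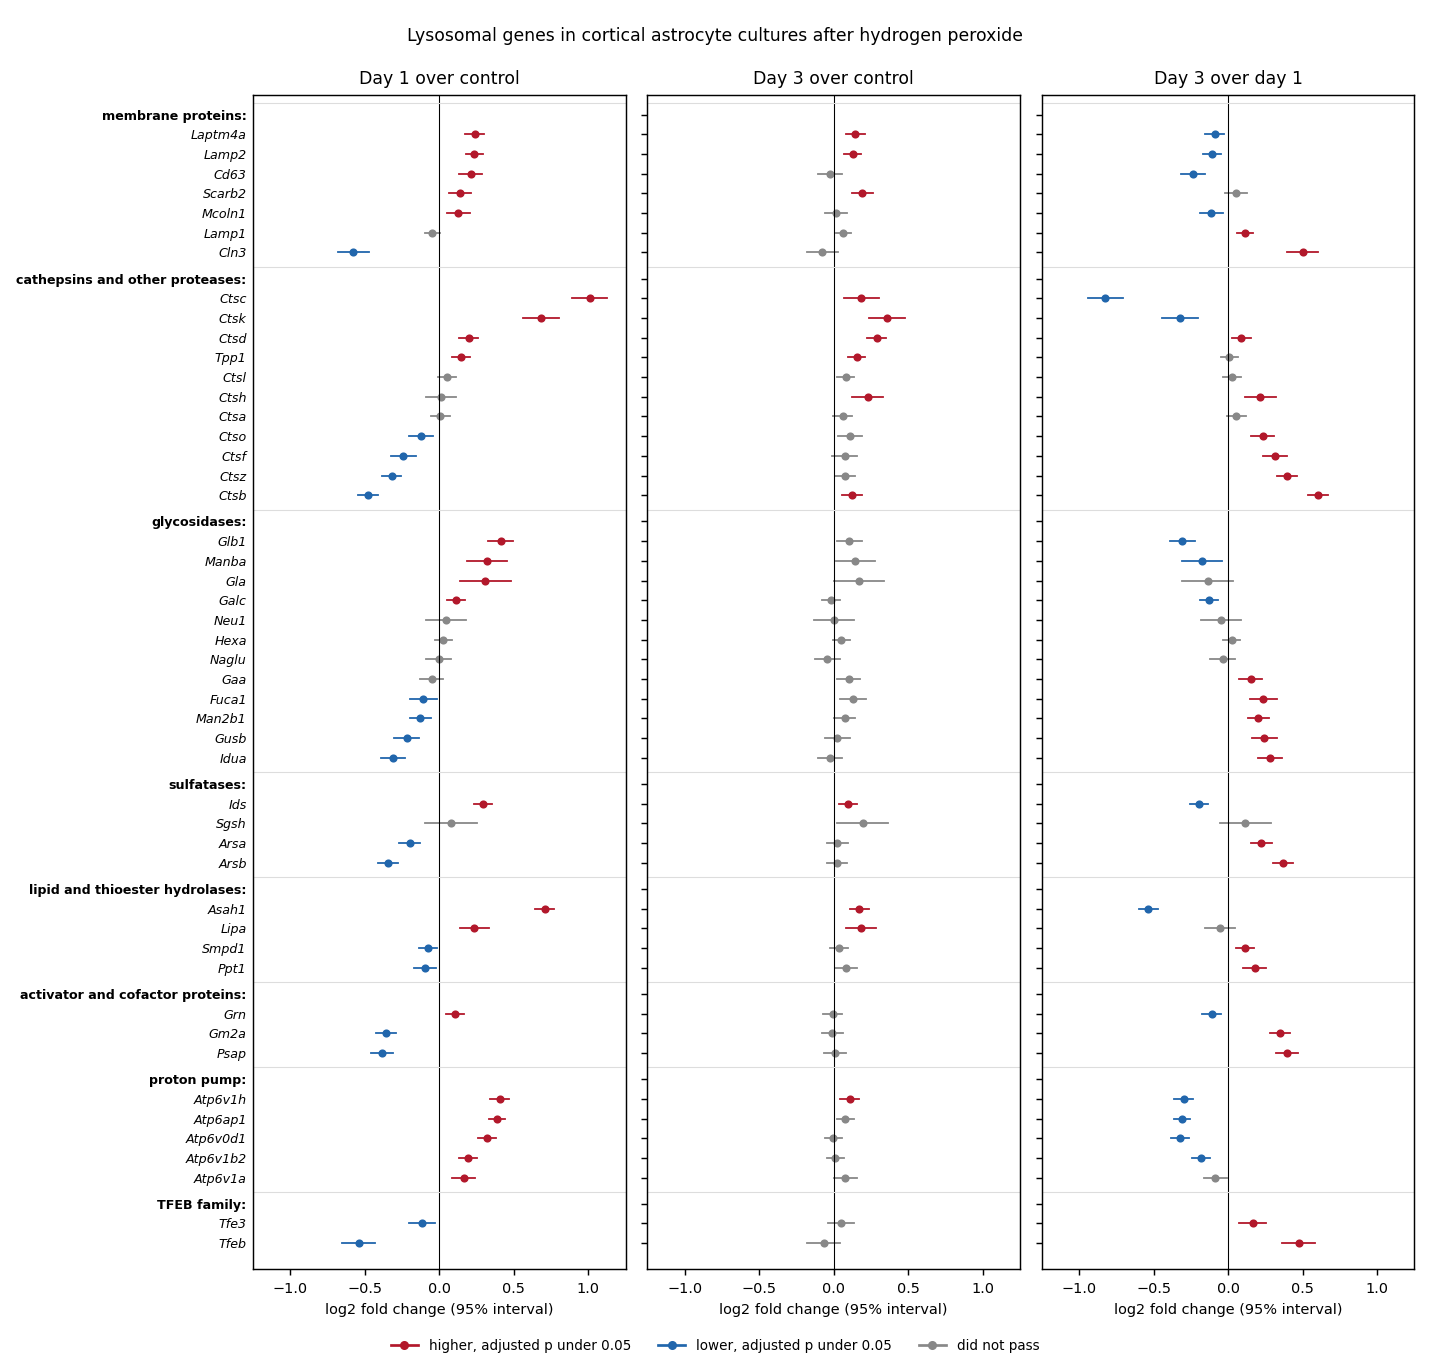
Log2 fold changes (points) with 95% intervals (lines) for all 48 genes, grouped by role, in the comparisons day 1 over control, day 3 over control and day 3 over day 1. Red points passed as higher, blue points as lower and grey points did not pass, with 22 red and 17 blue on day 1 and 13 red and 0 blue on day 3, both against control.

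Markers of other cell types also differed between the groups. Of 16 microglia markers, none of them among the lysosomal genes, 14 were tested. On day 1 13 of these were lower and Tmem119 was higher than in control, with a median log2 change of -1.34. Their summed level was 247 to 319 FPKM on day 3, 116 to 127 FPKM on day 1 and 302 to 328 FPKM in control. Siglech was at or near 0 in every library and P2ry12 was under 1 FPKM. On day 3 against control, 0 microglia markers passed by limma or by limma-voom, and at an unadjusted p under 0.05 0 were higher and 1 was lower. All 9 tested of 10 markers of the oligodendrocyte lineage were lower on day 1 and 7 on day 3, with a sum of 542 to 573 FPKM on day 3, 412 to 447 FPKM on day 1 and 638 to 669 FPKM in control. The 4 tested of 8 fibroblast markers were lower on day 1 too, and on day 3 1 was higher and 1 lower, with a sum of 108 to 114 FPKM on day 3, 52.9 to 55.0 FPKM on day 1 and 108 to 113 FPKM in control. Of the 10 astrocyte markers, 2 were higher and 6 lower on day 1, 0 were higher and 3 lower on day 3, and their sum was 2573 to 2608 FPKM on day 3, 2075 to 2340 FPKM on day 1 and 2799 to 2868 FPKM in control. Neuron markers, 3 of 6 tested, were higher on day 1 in 3 and on day 3 in 2, with a sum of 108 to 110 FPKM on day 3, 108 to 111 FPKM on day 1 and 101 to 102 FPKM in control. Of 5 endothelial markers, Cdh5 was tested, and it was 1.22-fold higher on day 3 than in control (adjusted p = 0.0016) and 1.21-fold higher on day 3 than on day 1 (adjusted p = 0.000244), with no call on day 1. The 5 summed to 14.2 to 15.2 FPKM on day 3, 11.6 to 12.4 FPKM on day 1 and 12.2 to 13.1 FPKM in control. The part of any of these cell types in the lysosomal results was not tested. In bulk RNA, fewer cells of a type and less RNA per cell cannot be told apart.

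**Figure D3:**
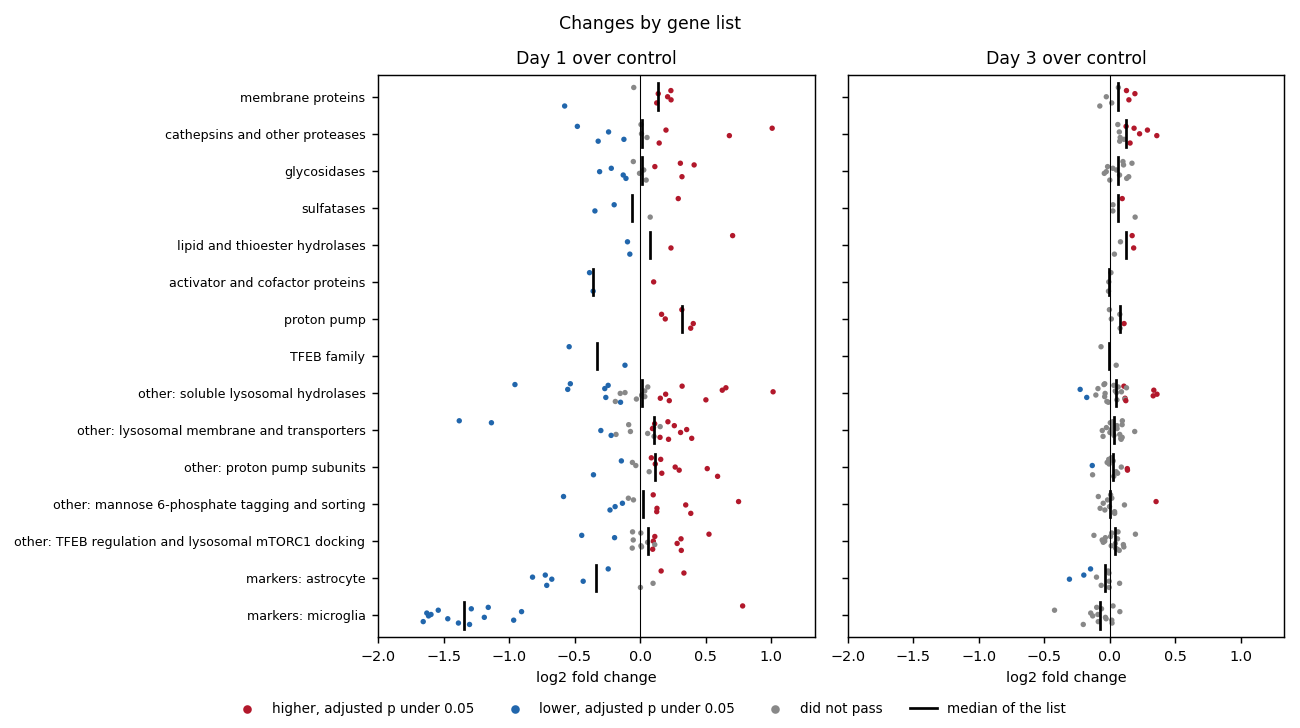
Log2 fold change of each tested gene (points) and the median of its list (black line), on day 1 and on day 3 over control, for the role groups of the 48 genes, the other lysosomal lists, and astrocyte and microglia markers. On day 1 the microglia list stands at a median of -1.34 and the proton pump genes at 0.32.

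Of the 7 membrane protein genes, 5 were higher and 1 was lower on day 1 than in control, and on day 3 3 were higher and 0 lower. Over all genes tested, 31.1% passed each way on day 1, and 7.37% as higher and 6.45% as lower on day 3. Lamp1 (chr8:13159161-13175338, GRCm38.p6 here and below), one of the most abundant proteins of the lysosomal membrane, had 478, 477 and 488 FPKM on day 3, 441, 446 and 432 FPKM on day 1 and 462, 465 and 467 FPKM in control. The groups did not overlap, with day 3 highest and day 1 lowest, but the steps were small. Against control neither day 3 (ratio 1.05, 95% interval 1.01 to 1.08, adjusted p = 0.0881) nor day 1 (ratio 0.967, 95% interval 0.934 to 1.00, adjusted p = 0.0924) passed, and day 3 was 1.08-fold higher (95% interval 1.04 to 1.12, adjusted p = 0.00169) than day 1. Lamp1 passed as lower on day 1 on the values as deposited (adjusted p = 0.0258) and with quantile normalization (log2 change -0.20, adjusted p = 2.66e-05, against -0.05 as first fitted). On day 3 it passed as higher with quantile normalization (adjusted p = 0.0449) and by limma-voom (adjusted p = 0.0421). Its relative Lamp2 (chrX:38399647-38456460), which also serves as a receptor in chaperone-mediated autophagy, had 73.2, 68.96 and 69.99 FPKM on day 3, 75.99, 76.8 and 73.3 FPKM on day 1 and 65.6, 65.97 and 64.7 FPKM in control. All treated libraries lay above all control libraries. Lamp2 was 1.09-fold higher (95% interval 1.05 to 1.14, adjusted p = 0.00984) on day 3 and 1.18-fold higher (95% interval 1.13 to 1.23, adjusted p = 2.05e-05) on day 1 than in control.

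Laptm4a (chr12:8921307-8938742), a multi-spanning protein of late endosomes and lysosomes, had the largest rise of the membrane group on day 1. Its levels were 382, 385 and 374 FPKM on day 3, 409, 402 and 391 FPKM on day 1 and 347, 342 and 354 FPKM in control, and the 3 groups were separate with day 1 highest. It was 1.11-fold higher (95% interval 1.06 to 1.16, adjusted p = 0.00685) on day 3 and 1.18-fold higher (95% interval 1.13 to 1.23, adjusted p = 3.26e-05) on day 1 than in control. Scarb2 (chr5:92441311-92505657), an abundant lysosomal membrane protein that also acts as a sorting receptor, had 73.6, 72.3 and 70.1 FPKM on day 3, 70.6, 69.6 and 65.7 FPKM on day 1 and 63.05, 65.9 and 62.2 FPKM in control. As deposited, day 3 lay above control throughout, while day 1 lay between them and overlapped both narrowly. After rescaling, the day 1 libraries lay above all control libraries. Scarb2 was 1.14-fold higher (95% interval 1.09 to 1.20, adjusted p = 0.00352) on day 3, the largest rise of this group at that time, and 1.10-fold higher (95% interval 1.05 to 1.16, adjusted p = 0.00354) on day 1, a call lost with quantile normalization (adjusted p = 0.248). Cd63 (chr10:128896231-128912822), a tetraspanin of late endosomes and exosomes, had 338, 347 and 326 FPKM on day 3, 404, 394 and 382 FPKM on day 1 and 344, 338 and 359 FPKM in control. The day 1 libraries stood above the other groups, which overlapped. Cd63 was 1.16-fold higher (95% interval 1.10 to 1.22, adjusted p = 0.00042) on day 1 than in control, a call lost with quantile normalization (adjusted p = 0.178), and on day 3 it was 1.18-fold lower (95% interval 1.12 to 1.24, adjusted p = 0.000233) than on day 1.

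Mcoln1 (chr8:3500519-3515232) encodes the cation channel that releases calcium from lysosomes, and it had 17.9, 17.4 and 18.7 FPKM on day 3, 19.4, 19.5 and 18.8 FPKM on day 1 and 18.4, 17.5 and 18.2 FPKM in control. The day 1 libraries lay just above the others, 1.09-fold higher (95% interval 1.04 to 1.15, adjusted p = 0.00809) than in control. Day 3 was 1.08-fold lower (95% interval 1.03 to 1.14, adjusted p = 0.0173) than day 1, a call lost without day 3 replicate 1 (adjusted p = 0.0535) or without day 3 replicate 2 (adjusted p = 0.0628). Cln3 (chr7:126571207-126585817), the membrane protein lost in the human disorder juvenile neuronal ceroid lipofuscinosis, was the exception of the group. It had 9.66, 9.20 and 9.996 FPKM on day 3, 6.99, 6.70 and 6.40 FPKM on day 1 and 10.4, 10.7 and 9.72 FPKM in control. Day 1 was far below the others, and day 3 and control overlapped. On day 1 Cln3 was 1.49-fold lower (95% interval 1.38 to 1.60, adjusted p = 2.27e-06) than in control, and on day 3 it was 1.41-fold higher (95% interval 1.31 to 1.52, adjusted p = 9.64e-06) than on day 1. Against control on day 3 it did not pass (ratio 0.949, 95% interval 0.882 to 1.02, adjusted p = 0.343). Exons of Cln3 overlap those of Apobr on the opposite strand over 442 bases, and Apobr averaged 1.51 FPKM on day 3, 2.13 FPKM on day 1 and 1.62 FPKM in control.

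**Figure D4:**
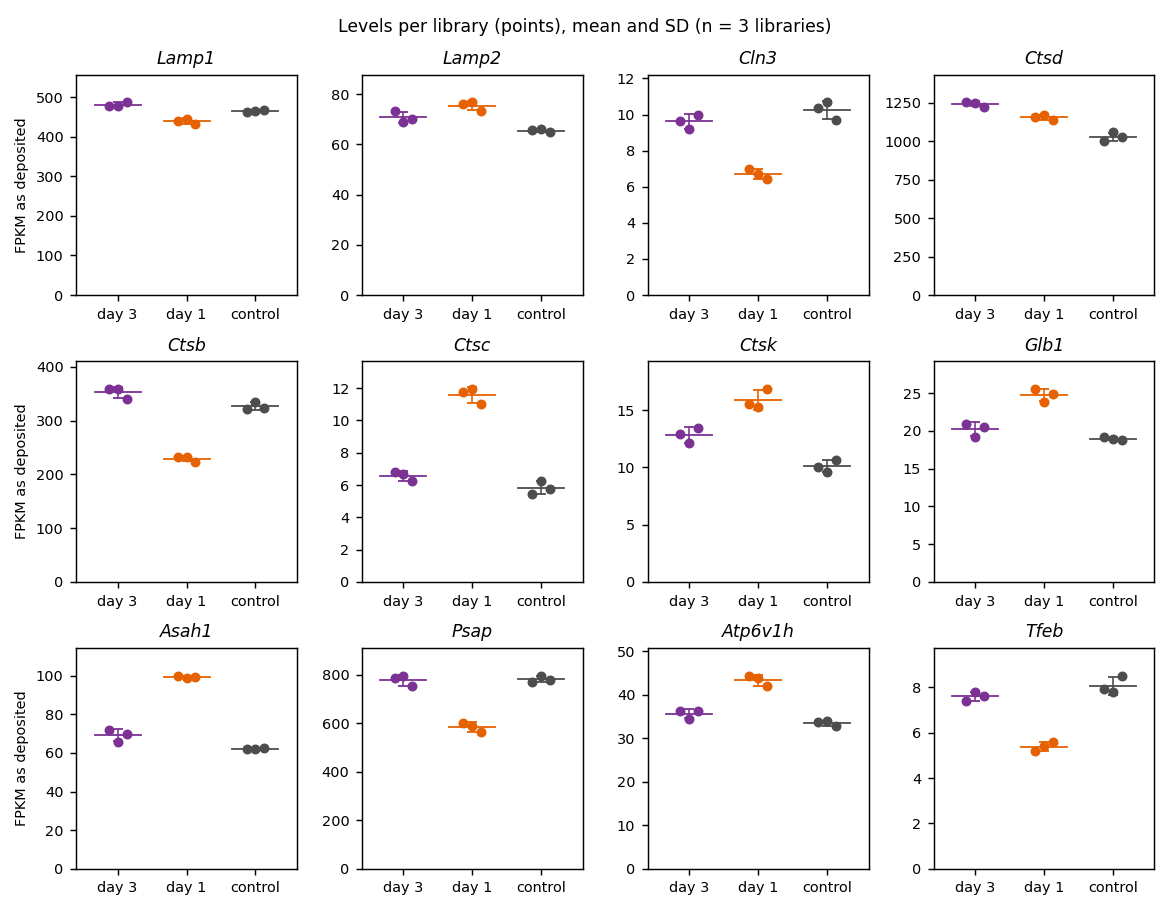
FPKM as deposited of 12 of the genes in each library (points), with the group mean (line) and SD (bar, n = 3 libraries), ordered day 3, day 1 and control on the x axis, with y axes from 0. Ctsc, Asah1, Glb1 and Atp6v1h are highest on day 1, while Cln3, Ctsb, Psap and Tfeb are lowest there.

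Of the 11 cathepsin and other protease genes, 6 were higher and 0 lower than in control on day 3, and 4 were higher and 4 lower on day 1. As shares, these were 54.5% up and 0% down for day 3, and 36.4% in each direction for day 1. The matching limma rates across the 12611 genes were 7.37% up and 6.45% down for day 3. For day 1 the rate was 31.1% in each direction, close to the protease share. All 11 protease genes had day 3 libraries above all control libraries after rescaling, against 17.8% of all genes tested. Ctsd (chr7:142375910-142387827), an aspartic protease that starts the breakdown of many proteins, had 1254, 1251 and 1223 FPKM on day 3, 1158, 1167 and 1139 FPKM on day 1 and 1003, 1057 and 1029 FPKM in control. The groups were separate, with day 3 highest and control lowest. Ctsd was 1.22-fold higher (95% interval 1.17 to 1.28, adjusted p = 0.000194) on day 3 and 1.15-fold higher (95% interval 1.10 to 1.20, adjusted p = 0.000134) on day 1 than in control, and with quantile normalization the day 3 call was lost (adjusted p = 0.143). The difference between the days was small, 1.06-fold higher (95% interval 1.02 to 1.11, adjusted p = 0.0206), and its sign turned with quantile normalization to a log2 difference of -0.10 (adjusted p = 0.036). It also lost its call without day 1 replicate 1 (adjusted p = 0.0607), without day 1 replicate 2 (adjusted p = 0.0646) or without day 3 replicate 1 (adjusted p = 0.0579).

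Ctsb (chr14:63122462-63145923), cathepsin B, a cysteine protease that cuts both within and at the end of chains, moved in opposite directions at the 2 times. It had 358, 359 and 339.6 FPKM on day 3, 232, 232 and 223 FPKM on day 1 and 321, 335 and 324 FPKM in control. Day 1 was well below the others, and every day 3 library was above every control library. Ctsb was 1.39-fold lower (95% interval 1.33 to 1.46, adjusted p = 3.56e-07) on day 1 than in control and 1.52-fold higher (95% interval 1.45 to 1.59, adjusted p = 1.55e-07) on day 3 than on day 1, the largest rise between the days among the 48 genes. On day 3 it was 1.09-fold higher (95% interval 1.04 to 1.14, adjusted p = 0.0226) than in control. That last call was lost without control replicate 1 (adjusted p = 0.0609), control replicate 3 (adjusted p = 0.0825), day 3 replicate 1 (adjusted p = 0.0824) or day 3 replicate 2 (adjusted p = 0.0519). Exons of Ctsb overlap Fdft1 on the opposite strand over 774 bases, and Fdft1 averaged 25.03 FPKM on day 3, 29.6 FPKM on day 1 and 24.9 FPKM in control.

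Ctsc (chr7:88278024-88315861), a dipeptidyl peptidase known for activating serine proteases of immune cell granules, had the largest change of the 48 genes. Its levels were 6.81, 6.67 and 6.24 FPKM on day 3, 11.8, 11.95 and 11.00 FPKM on day 1 and 5.48, 6.26 and 5.77 FPKM in control. Day 1 stood far above the others, and day 3 overlapped the highest control library as deposited but not after rescaling. Ctsc was 2.01-fold higher (95% interval 1.85 to 2.18, adjusted p = 1.05e-07) on day 1 than in control and 1.77-fold lower (95% interval 1.63 to 1.92, adjusted p = 6.74e-07) on day 3 than on day 1. On day 3 it was 1.14-fold higher (95% interval 1.05 to 1.23, adjusted p = 0.0428) than in control, and its call was lost without control replicate 1 (adjusted p = 0.133), control replicate 3 (adjusted p = 0.117), day 1 replicate 1 (adjusted p = 0.0621), day 1 replicate 2 (adjusted p = 0.0604), day 3 replicate 1 (adjusted p = 0.14) or day 3 replicate 2 (adjusted p = 0.103). Ctsk (chr3:95499210-95509387), cathepsin K, the protease with which osteoclasts degrade collagen, had 12.9, 12.1 and 13.4 FPKM on day 3, 15.5, 15.3 and 16.8 FPKM on day 1 and 10.1, 9.57 and 10.6 FPKM in control. The 3 groups did not overlap, and day 1 was highest. Ctsk was 1.28-fold higher (95% interval 1.18 to 1.40, adjusted p = 0.0021) on day 3, the largest rise of the 48 genes at that time, and 1.60-fold higher (95% interval 1.47 to 1.75, adjusted p = 1.88e-06) on day 1 than in control.

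The other proteases moved less. Tpp1, the tripeptidyl peptidase lost in the human disorder late infantile neuronal ceroid lipofuscinosis, averaged 73.97 ± 2.33 FPKM on day 3, 72.7 ± 1.49 FPKM on day 1 and 67.2 ± 1.51 FPKM in control (SD, n = 3 each), 1.11-fold higher on day 3 (adjusted p = 0.00333) and 1.11-fold higher on day 1 (adjusted p = 0.000606), the day 1 call being lost with quantile normalization (adjusted p = 0.142). The aminopeptidase Ctsh averaged 23.3 ± 1.55 FPKM on day 3, 19.8 ± 0.730 FPKM on day 1 and 20.1 ± 0.253 FPKM in control and was 1.17-fold higher on day 3 (adjusted p = 0.00895), with no call on day 1. Its day 3 call was lost without the 2 libraries highest in Rn45s (adjusted p = 0.0517). Lower on day 1 and not called against control on day 3 were the cysteine cathepsins Ctsz, Ctsf and Ctso. Ctsz averaged 87.7 ± 2.21 FPKM on day 3, 65.9 ± 0.907 FPKM on day 1 and 84.1 ± 1.19 FPKM in control, 1.25-fold lower on day 1 (adjusted p = 4.80e-06). Ctsf averaged 38.8 ± 0.492 FPKM on day 3, 30.9 ± 2.01 FPKM on day 1 and 37.3 ± 0.233 FPKM in control, 1.18-fold lower (adjusted p = 0.000206), and Ctso averaged 21.9 ± 0.681 FPKM on day 3, 18.5 ± 0.529 FPKM on day 1 and 20.6 ± 0.755 FPKM in control, 1.09-fold lower (adjusted p = 0.0114). All 3 were higher again on day 3 than on day 1, and by limma-voom Ctso passed as higher on day 3 than in control (adjusted p = 0.0387). Ctsl, a broad cysteine endopeptidase, averaged 135 ± 1.58 FPKM on day 3, 131 ± 2.02 FPKM on day 1 and 129 ± 3.77 FPKM in control, and Ctsa, the carboxypeptidase that protects beta-galactosidase and neuraminidase, averaged 63.5 ± 0.384 FPKM on day 3, 60.5 ± 1.26 FPKM on day 1 and 61.5 ± 1.50 FPKM in control. Neither passed in any of the 3 comparisons as first fitted. With quantile normalization both passed as lower on day 1, Ctsl with adjusted p = 0.0327 and Ctsa with adjusted p = 0.0355. Both then also passed as higher on day 3 than on day 1, Ctsl with adjusted p = 0.000633 and Ctsa with adjusted p = 0.00281. By limma-voom Ctsl passed as higher on day 3 than in control (adjusted p = 0.0356). Exons of Ctsa overlap Pltp on the opposite strand over 495 bases. Pltp averaged 91.6 FPKM on day 3, 53.5 FPKM on day 1 and 91.0 FPKM in control, and its part in the level of Ctsa was not tested.

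The 12 glycosidases remove sugars from glycoproteins, glycolipids and glycosaminoglycans, and on day 1 4 were higher, 4 were lower and 4 did not pass against control. These shares of 33.3% each way were close to the 31.1% each way of all genes tested. On day 3 against control 0 passed by limma in either direction, beside 13.8% of all genes tested. At an unadjusted p under 0.05, 5 glycosidases were higher and 0 lower. By limma-voom 2 of them, named because so few passed, were higher: Fuca1 (adjusted p = 0.0119) and Gaa (adjusted p = 0.0258). Glb1 (chr9:114401078-114474379), the beta-galactosidase whose activity is widely used to stain senescent cells, had 20.97, 19.2 and 20.5 FPKM on day 3, 25.6, 23.9 and 24.9 FPKM on day 1 and 19.2, 18.98 and 18.8 FPKM in control. On day 1 every library was above all others. Glb1 was 1.33-fold higher (95% interval 1.26 to 1.41, adjusted p = 5.45e-06) on day 1 than in control and 1.24-fold lower (95% interval 1.17 to 1.31, adjusted p = 6.45e-05) on day 3 than on day 1, and on day 3 it did not pass against control (ratio 1.08, 95% interval 1.01 to 1.14, adjusted p = 0.101). Exons of Glb1 overlap Tmppe on the same strand over 165 bases, and Tmppe averaged 2.602 FPKM on day 3, 2.19 FPKM on day 1 and 2.52 FPKM in control. Idua (chr5:108660331-108685446), the iduronidase lost in the human disorder Hurler syndrome, had 10.9, 10.3 and 10.5 FPKM on day 3, 8.92, 8.68 and 8.16 FPKM on day 1 and 10.8, 11.1 and 10.9 FPKM in control. Its day 1 libraries were below all others, and day 3 and control overlapped. Idua was 1.24-fold lower (95% interval 1.17 to 1.31, adjusted p = 3.43e-05) on day 1 than in control and 1.22-fold higher (95% interval 1.15 to 1.29, adjusted p = 8.87e-05) on day 3 than on day 1.

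Of the other glycosidases that were higher on day 1, Manba, a beta-mannosidase, averaged 5.98 ± 0.121 FPKM on day 3, 6.70 ± 0.181 FPKM on day 1 and 5.48 ± 0.553 FPKM in control and rose 1.25-fold (adjusted p = 0.000785). On day 3 it was 1.13-fold lower than on day 1 (adjusted p = 0.027), a call lost without day 1 replicate 1 (adjusted p = 0.0678), day 1 replicate 2 (adjusted p = 0.0603), day 3 replicate 1 (adjusted p = 0.0798) or day 3 replicate 2 (adjusted p = 0.0535), and on the values as deposited (adjusted p = 0.0564). Gla, the alpha-galactosidase lost in human Fabry disease, averaged 4.97 ± 0.275 FPKM on day 3, 5.42 ± 0.403 FPKM on day 1 and 4.46 ± 0.395 FPKM in control and rose 1.24-fold (adjusted p = 0.0052). Galc, the galactosylceramidase lost in human Krabbe disease, averaged 20.6 ± 0.270 FPKM on day 3, 22.3 ± 0.446 FPKM on day 1 and 21.1 ± 0.539 FPKM in control and rose 1.08-fold (adjusted p = 0.0048). These were small changes in genes at about 4 to 23 FPKM. Lower on day 1 were the beta-glucuronidase Gusb at 21.4 ± 0.962 FPKM on day 3, 17.9 ± 0.323 FPKM on day 1 and 21.3 ± 0.387 FPKM in control, 1.16-fold (adjusted p = 0.000433), and the alpha-mannosidase Man2b1 at 23.4 ± 0.730 FPKM on day 3, 20.1 ± 0.144 FPKM on day 1 and 22.5 ± 0.344 FPKM in control, 1.09-fold (adjusted p = 0.00504). The fucosidase Fuca1 averaged 45.2 ± 0.983 FPKM on day 3, 37.95 ± 2.06 FPKM on day 1 and 41.8 ± 1.28 FPKM in control and was 1.08-fold lower on day 1 (adjusted p = 0.0392). Leaving out any of control replicates 1, 2 or 3, day 1 replicates 2 or 3 or day 3 replicate 1 ended that call, with adjusted p = 0.119 without control replicate 3 and adjusted p = 0.166 without day 1 replicate 2. The alpha-glucosidase Gaa, the hexosaminidase subunit Hexa, Naglu and the sialidase Neu1 did not pass on day 1. Gaa averaged 63.00 ± 3.12 FPKM on day 3, 56.02 ± 0.185 FPKM on day 1 and 59.4 ± 1.35 FPKM in control and was 1.11-fold higher on day 3 than on day 1 (adjusted p = 0.00359). Hexa averaged 71.5 ± 1.17 FPKM on day 3, 69.6 ± 1.34 FPKM on day 1 and 69.8 ± 0.926 FPKM in control, Naglu 15.3 ± 0.456 FPKM on day 3, 15.6 ± 0.614 FPKM on day 1 and 15.98 ± 0.678 FPKM in control and Neu1 7.46 ± 0.257 FPKM on day 3, 7.62 ± 0.289 FPKM on day 1 and 7.56 ± 0.702 FPKM in control. With quantile normalization Hexa passed as lower on day 1 (adjusted p = 0.024) and as higher on day 3 than on day 1 (adjusted p = 0.00296).

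Sulfatases remove sulfate groups from glycosaminoglycans and glycolipids, and on day 1 1 of 4 was higher and 2 were lower than in control. The shares over all genes tested were 31.1% each way. Ids (chrX:70343069-70385834), the iduronate sulfatase lost in human Hunter syndrome, had 28.8, 26.7 and 28.4 FPKM on day 3, 31.6, 32.05 and 31.5 FPKM on day 1 and 26.3, 26.7 and 26.5 FPKM in control. All day 1 libraries were above the others, and the day 3 libraries began just above the highest control. Ids was 1.22-fold higher (95% interval 1.17 to 1.28, adjusted p = 5.56e-06) on day 1 than in control and 1.15-fold lower (95% interval 1.10 to 1.19, adjusted p = 0.000132) on day 3 than on day 1. On day 3 Ids was 1.07-fold higher (95% interval 1.02 to 1.11, adjusted p = 0.0425) than in control, and leaving out any library other than day 3 replicate 2 ended that call, with adjusted p = 0.147 without day 3 replicate 1. Arsb (chr13:93771679-93943016), which removes sulfate from dermatan and chondroitin sulfate, had 44.9, 42.4 and 44.2 FPKM on day 3, 34.6, 33.8 and 32.3 FPKM on day 1 and 43.7, 44.4 and 42.7 FPKM in control. Its day 1 libraries were below all others, 1.27-fold lower (95% interval 1.21 to 1.33, adjusted p = 3.43e-06) than in control, and day 3 was 1.29-fold higher (95% interval 1.23 to 1.35, adjusted p = 3.28e-06) than day 1. Arsa, the sulfatide-degrading enzyme lost in human metachromatic leukodystrophy, averaged 20.3 ± 0.221 FPKM on day 3, 17.2 ± 0.591 FPKM on day 1 and 20.2 ± 0.379 FPKM in control and was 1.15-fold lower on day 1 (adjusted p = 0.000332). Sgsh, a heparan sulfamidase, averaged 5.69 ± 0.296 FPKM on day 3, 5.19 ± 0.476 FPKM on day 1 and 5.02 ± 0.331 FPKM in control and did not pass in any comparison as first fitted. By limma-voom it passed as higher on day 3 than in control (adjusted p = 0.0257). Without day 1 replicate 3 it passed as higher on day 3 than on day 1 (limma adjusted p = 0.0408).

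Of 4 genes for lipid and thioester hydrolases, 2 were higher and 2 lower than in control on day 1, and on day 3 2 were higher and 0 lower. All genes tested gave 31.1% each way on day 1, and 7.37% higher and 6.45% lower on day 3. Asah1 (chr8:41340646-41397644), the acid ceramidase that turns ceramide into sphingosine, had 72.03, 65.8 and 70.1 FPKM on day 3, 99.96, 98.7 and 99.4 FPKM on day 1 and 62.1, 62.1 and 62.4 FPKM in control. The 3 groups were separate, with day 1 highest and control lowest, and the control libraries lay within 1 FPKM of each other. Asah1 was 1.13-fold higher (95% interval 1.08 to 1.18, adjusted p = 0.00342) on day 3 and 1.63-fold higher (95% interval 1.56 to 1.71, adjusted p = 1.86e-08) on day 1 than in control. Lipa (chr19:34492316-34527474), the acid lipase that frees cholesterol from its esters, had 28.8, 25.2 and 25.7 FPKM on day 3, 27.1, 28.1 and 26.4 FPKM on day 1 and 23.4, 24.4 and 23.02 FPKM in control. All treated libraries were above all control libraries. Lipa was 1.13-fold higher (95% interval 1.06 to 1.22, adjusted p = 0.0222) on day 3 and 1.18-fold higher (95% interval 1.10 to 1.26, adjusted p = 0.000894) on day 1 than in control. The day 3 call was lost without control replicate 1 (adjusted p = 0.055), control replicate 3 (adjusted p = 0.0806) or day 3 replicate 1 (adjusted p = 0.0522).

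Ppt1 (chr4:122836077-122859175), which removes palmitate from proteins, had 69.6, 66.4 and 65.3 FPKM on day 3, 58.3, 61.2 and 56.5 FPKM on day 1 and 64.7, 65.3 and 62.3 FPKM in control. The day 1 libraries were the lowest as deposited, although the rescaled values of day 1 and control overlapped. Ppt1 was 1.07-fold lower (95% interval 1.01 to 1.13, adjusted p = 0.0315) on day 1 than in control and 1.13-fold higher (95% interval 1.07 to 1.19, adjusted p = 0.00126) on day 3 than on day 1. The day 1 call was lost without control replicate 1 (adjusted p = 0.106), control replicate 2 (adjusted p = 0.0825), day 1 replicate 1 (adjusted p = 0.0844) or day 1 replicate 3 (adjusted p = 0.105). Exons of Ppt1 overlap Cap1 on the opposite strand over 129 bases. Cap1 averaged 132 FPKM on day 3, 134 FPKM on day 1 and 129 FPKM in control. Smpd1, the acid sphingomyelinase that makes ceramide, averaged 54.3 ± 0.933 FPKM on day 3, 49.6 ± 1.36 FPKM on day 1 and 53.5 ± 2.06 FPKM in control and was 1.06-fold lower on day 1 (adjusted p = 0.0284), a call lost without control replicate 3 (adjusted p = 0.106), day 1 replicate 2 (adjusted p = 0.0772) or day 1 replicate 3 (adjusted p = 0.0902).

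The 3 activator and cofactor proteins help the hydrolases reach or bind their substrates, and on day 1 1 was higher and 2 were lower than in control, with 0 called on day 3 by limma or limma-voom and 0 at an unadjusted p under 0.05. Among all genes tested, limma called 31.1% each way on day 1 and 13.8% in either direction on day 3. Psap (chr10:60277628-60302600), the precursor of the saposins that present sphingolipids to their hydrolases, had 785, 796 and 753 FPKM on day 3, 602, 590.1 and 564 FPKM on day 1 and 770.3, 795 and 780.1 FPKM in control. Every day 1 library was below all others, and day 3 and control overlapped. Psap was 1.31-fold lower (95% interval 1.24 to 1.37, adjusted p = 3.05e-06) on day 1 than in control and 1.31-fold higher (95% interval 1.25 to 1.38, adjusted p = 4.00e-06) on day 3 than on day 1, with no call between day 3 and control (ratio 1.01, 95% interval 0.956 to 1.06, adjusted p = 0.894). Gm2a, the activator that lifts gangliosides out of the membrane for degradation, followed the same pattern at 49.8 ± 0.969 FPKM on day 3, 38.7 ± 0.652 FPKM on day 1 and 50.8 ± 1.35 FPKM in control, 1.28-fold lower on day 1 than in control (adjusted p = 3.35e-06). Grn (chr11:102430507-102436809), progranulin, the precursor of granulins that act in the lysosome, had 113, 111 and 108 FPKM on day 3, 117, 118 and 119.8 FPKM on day 1 and 109.7, 116 and 113 FPKM in control. Day 1 was slightly above the other groups. Grn was 1.07-fold higher (95% interval 1.03 to 1.12, adjusted p = 0.00767) on day 1 than in control, which became a log2 change of -0.00 with quantile normalization (adjusted p = 0.948), and day 3 was 1.08-fold lower (95% interval 1.03 to 1.13, adjusted p = 0.00603) than day 1, a call lost with quantile normalization (adjusted p = 0.555).

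All 5 proton pump genes were higher on day 1 than in control, by 1.12- to 1.33-fold, and 4 of 5 were lower on day 3 than on day 1. Over all genes tested, 31.1% were higher on day 1 than in control, and 28.4% were lower on day 3 than on day 1. Atp6v1h (chr1:5082978-5163213), a regulatory subunit of the cytosolic V1 sector, had 36.2, 34.5 and 36.3 FPKM on day 3, 44.3, 43.8 and 41.9 FPKM on day 1 and 33.6, 33.9 and 32.7 FPKM in control. The 3 groups were separate, with day 1 highest. Atp6v1h was 1.33-fold higher (95% interval 1.27 to 1.39, adjusted p = 7.12e-07) on day 1 than in control. On day 3 it was 1.08-fold higher (95% interval 1.03 to 1.13, adjusted p = 0.0298), a call lost without control replicate 2 (adjusted p = 0.0689), control replicate 3 (adjusted p = 0.106), day 3 replicate 1 (adjusted p = 0.095) or day 3 replicate 3 (adjusted p = 0.106). Atp6v0d1 (chr8:105524461-105566064), a subunit of the membrane sector, whose promoter is printed above, had 64.01, 64.03 and 64.96 FPKM on day 3, 80.9, 79.6 and 78.1 FPKM on day 1 and 62.2, 66.3 and 67.2 FPKM in control. The day 1 libraries were well above the others, which overlapped. Atp6v0d1 was 1.25-fold higher (95% interval 1.20 to 1.30, adjusted p = 2.22e-06) on day 1 than in control and 1.25-fold lower (95% interval 1.20 to 1.30, adjusted p = 3.30e-06) on day 3 than on day 1, and did not pass against control on day 3 (ratio 0.998, 95% interval 0.958 to 1.04, adjusted p = 0.961).

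The accessory subunit Atp6ap1 averaged 92.7 ± 1.75 FPKM on day 3, 113 ± 0.397 FPKM on day 1 and 88.7 ± 1.25 FPKM in control (SD, n = 3 each) and was 1.31-fold higher on day 1 (adjusted p = 3.33e-07). It missed the threshold on day 3 (adjusted p = 0.0586) and passed it without control replicate 1 (adjusted p = 0.0456). Atp6v1b2 and Atp6v1a form the part of the pump that binds and splits ATP. Atp6v1b2 averaged 50.6 ± 0.300 FPKM on day 3, 56.8 ± 1.70 FPKM on day 1 and 50.8 ± 0.739 FPKM in control, 1.14-fold higher on day 1 (adjusted p = 9.77e-05), and Atp6v1a averaged 47.5 ± 1.83 FPKM on day 3, 49.96 ± 1.68 FPKM on day 1 and 45.6 ± 1.58 FPKM in control, 1.12-fold higher (adjusted p = 0.00195).

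Both genes of the TFEB family were lower on day 1 than in control, beside 31.1% of all genes tested. On day 3 0 passed against control by limma, by limma-voom or at an unadjusted p under 0.05. Tfeb (chr17:47737037-47792416) had 7.41, 7.80 and 7.62 FPKM on day 3, 5.19, 5.41 and 5.57 FPKM on day 1 and 7.92, 7.78 and 8.51 FPKM in control. Levels on day 1 were below all others, and day 3 and control overlapped. Tfeb was 1.46-fold lower (95% interval 1.35 to 1.57, adjusted p = 5.31e-06) on day 1 than in control and 1.39-fold higher (95% interval 1.29 to 1.50, adjusted p = 1.94e-05) on day 3 than on day 1. On day 3 against control it did not pass (ratio 0.955, 95% interval 0.884 to 1.03, adjusted p = 0.436). Tfe3 (chrX:7762530-7775202) had 20.5, 20.2 and 20.4 FPKM on day 3, 17.00, 19.04 and 17.9 FPKM on day 1 and 19.02, 20.7 and 20.01 FPKM in control. Day 3 lay above day 1, and as deposited the highest day 1 library overlapped the lowest control library. After rescaling, the day 1 libraries lay below all control libraries. Tfe3 was 1.08-fold lower (95% interval 1.02 to 1.15, adjusted p = 0.0271) on day 1 than in control, and day 3 was 1.12-fold higher (95% interval 1.05 to 1.19, adjusted p = 0.00501) than day 1. The day 1 call of Tfe3 was lost without control replicate 2 (adjusted p = 0.0926), control replicate 3 (adjusted p = 0.0533) or day 1 replicate 1 (adjusted p = 0.11). RNA levels say nothing of where in the cell these proteins were.

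Other genes of the lysosome, 93 in 5 lists, were read beside these 48. On day 1, 38 of the 86 tested lay higher than in control (44.2%) and 19 lower (22.1%), beside 31.1% each way over all genes tested, with a median log2 change of 0.06. On day 3 9 were higher (10.5%) and 3 lower (3.49%) than in control, beside 7.37% and 6.45% of all genes. Between the days 25 were higher (29.1%) and 33 lower (38.4%) on day 3, beside 27.9% and 28.4%. Ctsw, Lamp3, Mcoln2, Mcoln3, Atp6v1b1 and Tfec averaged under 1 FPKM and were not tested. Atp6v0c was also listed under 1 FPKM on average and not tested, and since no source used here says how reads matching several gene copies were counted, that level may not be its expression.

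Among 24 other soluble hydrolases tested, 8 were higher (33.3%) and 7 lower (29.2%) on day 1, close to the 31.1% each way of all genes tested. Acp5, an acid phosphatase known from osteoclasts, rose 2.02-fold (adjusted p = 0.000514) but stayed under 2 FPKM in every library. Ctss, a cathepsin known from macrophages and microglia, had 32.5, 31.95 and 25.2 FPKM on day 3, 15.4, 16.7 and 14.7 FPKM on day 1 and 30.6, 33.1 and 29.5 FPKM in control. It was 1.94-fold lower (95% interval 1.69 to 2.22, adjusted p = 5.20e-06) on day 1, and Naaa, an amidase of lipid mediators, was 1.47-fold lower (95% interval 1.38 to 1.56, adjusted p = 1.04e-06). On day 3, 6 of the 24 were higher (25%) and 2 lower (8.33%) than in control, beside 7.37% and 6.45% of all genes. Hyal1, a hyaluronidase, averaged 14.3 ± 0.420 FPKM on day 3, 12.6 ± 0.331 FPKM on day 1 and 11.3 ± 0.121 FPKM in control and was 1.28-fold higher (95% interval 1.23 to 1.35, adjusted p = 6.91e-05) on day 3, and Aga, which splits sugar from asparagine, was 1.26-fold higher (95% interval 1.17 to 1.36, adjusted p = 0.00184). Naaa was 1.17-fold lower (adjusted p = 0.00503) and the carboxypeptidase Scpep1 1.13-fold lower (adjusted p = 0.00314).

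Of 20 other membrane proteins and transporters tested, 9 were higher (45%) and 4 lower (20%) on day 1, beside 31.1% each way of all genes. On day 3 0 passed against control by limma in either direction, with 4 higher and 0 lower at an unadjusted p under 0.05 and 2 higher by limma-voom. The sialomucin Cd164 was 1.31-fold higher on day 1 (adjusted p = 8.91e-07), and Ostm1, partner of the chloride transporter Clcn7, was 1.28-fold higher (adjusted p = 8.02e-05). The largest fall was that of Cd68, a glycoprotein of macrophage and microglial lysosomes, with 25.1, 26.1 and 21.1 FPKM on day 3, 7.46, 9.30 and 8.74 FPKM on day 1 and 22.6, 26.1 and 19.8 FPKM in control. The day 1 libraries were far below the others. Cd68 was 2.603-fold lower (95% interval 2.19 to 3.10, adjusted p = 2.20e-06) on day 1, and Laptm5, which is known from blood cells and microglia, was 2.20-fold lower (95% interval 1.92 to 2.51, adjusted p = 1.41e-06).

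Of 13 further proton pump subunits tested, 8 were higher (61.5%) and 2 lower (15.4%) on day 1, beside 31.1% each way of all genes. Atp6ap2, the accessory subunit also known as the prorenin receptor, had 28.2, 26.7 and 27.2 FPKM on day 3, 41.6, 39.4 and 38.98 FPKM on day 1 and 27.7, 26.3 and 27.3 FPKM in control. Day 1 stood clear of the other groups, 1.51-fold higher (95% interval 1.43 to 1.59, adjusted p = 2.20e-07) than in control. Atp6v1d was 1.43-fold higher (adjusted p = 1.14e-06). Those lower were Atp6v1g2 (1.28-fold, adjusted p = 0.0345), a form known from neurons, and Tcirg1 (1.10-fold, adjusted p = 0.00747), a form known from osteoclasts. The call of Atp6v1g2 was lost without any 1 of the control libraries, without day 1 replicate 3 (adjusted p = 0.122) and with quantile normalization (adjusted p = 0.0511). On day 3, Atp6v1d (1.10-fold, adjusted p = 0.0438) and Atp6v1e1 (1.10-fold, adjusted p = 0.00499) were higher than in control and Atp6v0e2 was lower (1.10-fold, adjusted p = 0.00589). The day 3 call of Atp6v1d was lost without any 1 of control replicates 1 or 3, the day 1 libraries or day 3 replicates 1 or 3, with adjusted p = 0.145 without day 3 replicate 1.

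Of 12 genes that tag hydrolases with mannose 6-phosphate or sort them, 6 were higher (50%) and 4 lower (33.3%) on day 1, beside 31.1% each way of all genes. Igf2r, the receptor that carries tagged hydrolases to endosomes, had 22.7, 22.3 and 24.5 FPKM on day 3, 29.7, 30.2 and 30.7 FPKM on day 1 and 18.2, 18.9 and 17.8 FPKM in control. The groups were separate, with day 1 highest and control lowest. Igf2r was 1.28-fold higher (95% interval 1.20 to 1.36, adjusted p = 0.000296) on day 3 and 1.68-fold higher (95% interval 1.59 to 1.79, adjusted p = 8.34e-08) on day 1 than in control. Vps35, of the retromer complex that returns such receptors, was 1.31-fold higher on day 1 (adjusted p = 1.32e-06). Gnptg, a subunit of the enzyme that adds the tag, had 45.03, 44.9 and 45.3 FPKM on day 3, 32.4, 32.6 and 29.8 FPKM on day 1 and 47.4, 47.4 and 50.5 FPKM in control. It was 1.50-fold lower (95% interval 1.42 to 1.58, adjusted p = 1.81e-07) on day 1, and the adaptor Gga3 was 1.17-fold lower (adjusted p = 0.00112).

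Of 17 regulators of TFEB and of mTORC1 docking at the lysosome, 7 were higher (41.2%) and 2 lower (11.8%) on day 1, beside 31.1% each way of all genes. On day 3 0 passed against control by limma in either direction, with 4 higher and 1 lower at an unadjusted p under 0.05 and 2 higher by limma-voom. The folliculin partners went opposite ways: Fnip1 averaged 6.82 ± 0.329 FPKM on day 3, 8.51 ± 0.406 FPKM on day 1 and 6.01 ± 0.337 FPKM in control, 1.44-fold higher on day 1 (adjusted p = 2.49e-05), and Fnip2 averaged 4.72 ± 0.225 FPKM on day 3, 3.71 ± 0.121 FPKM on day 1 and 5.20 ± 0.149 FPKM in control, 1.36-fold lower (adjusted p = 3.80e-05). Ppp3cb, a catalytic subunit of the phosphatase calcineurin, which activates TFEB, was 1.24-fold higher (adjusted p = 2.68e-05). Of the Rag GTPases that bring mTORC1 to the lysosome, Rragc was 1.24-fold higher on day 1 (adjusted p = 1.78e-06) and Rragb 1.14-fold lower (adjusted p = 0.0432). The call of Rragb was lost without control replicate 2 (adjusted p = 0.159), day 1 replicates 2 (adjusted p = 0.17) or 3 (adjusted p = 0.0984), or day 3 replicates 2 (adjusted p = 0.0549) or 3 (adjusted p = 0.0501). Rptor, the mTORC1 scaffold, was 1.07-fold higher on day 3 than on day 1 (adjusted p = 0.0499), a call lost without any 1 library other than day 3 replicate 1, with adjusted p = 0.177 without day 3 replicate 3.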

How the data were processed

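Per the labels' protocols, total RNA was isolated with a column kit and poly(A) RNA libraries were made. The deposited table holds FPKM, which the authors computed for each library. The submitters' processing notes name FastQC 0.12.1, cutadapt 2.6, STAR 2.7.3a and DESeq2, and give GRCm38 and mm10 as builds. No source used here names the counting program, the annotation or the handling of strand. Exons of 13 of the 48 genes overlap another gene of the table in GENCODE M21, for 12 of them on the opposite strand, and reads there cannot be assigned.

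Each FPKM times a whole gene length and library total gave whole reads for all 20350 genes above 0, within 0.003 read, and the reads summed to 99.9% of the totals. FPKM were divided by median-of-ratios factors (0.976 to 1.02), genes averaging under 1 FPKM were left out, and log2(FPKM + 0.1) of all 9 libraries was fitted with group as the only term in limma 3.58.1 (R 4.3.3, trended variance), two-sided, with Benjamini-Hochberg adjustment over 12611 genes. The code was tested on simulated data. Replicates of a group differed beyond sampling noise: a chi-square test of their reads gave 1.75 to 4.76 per degree of freedom over genes with at least 20 reads in the pair and without Rn45s. Counts of groups apart use rescaled values.

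The genes, role groups, lists and tests were chosen with earlier results of these data known, so they are not independent evidence. Libraries are shown in full for 8 genes whatever their values (Lamp1, Lamp2, Ctsb, Ctsd, Grn, Mcoln1, Tfeb, Tfe3) and for the called gene with the largest rise and fall in each role group and comparison. In the other lists up to 2 of each are named, and some genes the rule picks there are not reported here. Cln3, Atp6v0d1, Gla and Ctsd promoters follow a rule on the longer motif and the day 1 change. Alternatives covered the pseudocount (1), filter, rescaling, libraries fitted, replicate block, each library left out, the 2 libraries with the highest Rn45s share left out, limma-voom 3.58.1 on recovered reads and a threshold of 0.01. Protein sequences were not used here. Figures were drawn with matplotlib 3.10.9.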

Additional observations from a re-analysis of the deposited data

Results flagged for a closer look

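The change against control differed between the 2 times for 37 of the 48 genes. The test was the limma comparison of day 3 with day 1 (adjusted p under 0.05), which equals the difference of the 2 changes because both use the same control libraries. Over all genes tested 56.2% passed it. Values in parentheses are the log2 change on day 3 minus that on day 1, and those of Ctsd and Laptm4a turned in sign with quantile normalization.

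Higher on day 3 than on day 1 were the membrane proteins Cln3 (0.50) and Lamp1 (0.11), and the proteases Ctsb (0.60), Ctsz (0.40), Ctsf (0.31), Ctso (0.23), Ctsh (0.22) and Ctsd (0.09). So were the glycosidases Idua (0.28), Gusb (0.24), Fuca1 (0.24), Man2b1 (0.20) and Gaa (0.15), the sulfatases Arsb (0.37) and Arsa (0.22), and the lipid and thioester hydrolases Ppt1 (0.18) and Smpd1 (0.11). The activators Psap (0.39) and Gm2a (0.35) and the transcription factors Tfeb (0.47) and Tfe3 (0.16) belonged to the same set.

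Lower on day 3 than on day 1 were the membrane proteins Cd63 (-0.24), Lamp2 (-0.11), Mcoln1 (-0.11) and Laptm4a (-0.09) and the proteases Ctsc (-0.82) and Ctsk (-0.32). The glycosidases Glb1 (-0.31), Manba (-0.18) and Galc (-0.13), the sulfatase Ids (-0.20), the acid ceramidase gene Asah1 (-0.54) and the progranulin gene Grn (-0.11) were lower too. The proton pump genes Atp6v0d1 (-0.32), Atp6ap1 (-0.31), Atp6v1h (-0.30) and Atp6v1b2 (-0.18) completed the set. With quantile normalization the calls of Lamp2 (adjusted p = 0.493) and Grn (adjusted p = 0.555) were lost. The calls of Ctsd, Laptm4a, Manba and Mcoln1 were each lost without at least 1 library, with a highest adjusted p of 0.0646 (without day 1 replicate 2), 0.0764 (without day 3 replicate 3), 0.0798 (without day 3 replicate 1) and 0.0628 (without day 3 replicate 2), in that order of genes. Groups of 3 libraries were not examined for single outlying libraries.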

How the results depend on the processing

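Of the 22 genes higher and 17 lower on day 1, 18 and 13 were called in the same direction in every one of 17 alternative fits, and of the 21 higher and 16 lower on day 3 than on day 1, 20 and 11 were. Of the 13 higher on day 3 than in control, 6 were: Lamp2, Laptm4a, Scarb2, Ctsk, Tpp1 and Asah1. That count of 13 became 8 on FPKM as deposited, 20 by limma-voom, 8 at the 0.01 threshold and 8 to 12 with each library left out in turn, lowest without control replicate 3 or day 3 replicate 1, and the count of other lysosomal genes higher on day 3 than in control, 9, became 5 as deposited, 15 by limma-voom and 5 at the 0.01 threshold. The cause was not tested. Leaving out each library gave 22 to 22 higher and 14 to 17 lower on day 1. With quantile normalization the log2 change turned in sign for Ctsa (-0.0719), Ctsl (-0.0713), Hexa (-0.0716) and Grn (-0.00266) on day 1, and for Laptm4a (0.0398) and Ctsd (-0.0966) on day 3 against day 1. Deviations from the group mean correlated at -0.08 to 0.11 for 9 same-numbered pairs of libraries, and at -0.15 to 0.15 for differently numbered pairs. With 3 libraries per group, these values cannot exclude a culture or batch shared by same-numbered libraries. With the replicate block, 22 genes were higher and 16 lower on day 1, 14 higher and 0 lower on day 3, both against control, and 21 higher and 17 lower on day 3 against day 1. Without Rn45s the summed level was 1.64% on day 3, 1.51% on day 1 and 1.53% in control, and without Ctsd, Psap and Lamp1 it was 0.824% on day 3, 0.809% on day 1 and 0.784% in control. The longer motif was in promoters of 7 genes where the shorter one was in 15. A search of protein tails for sorting signals was not run. The fewest reads behind a value were 347 (Tfeb), and the widest day 1 intervals were those of Sgsh, Gla, Neu1 and Manba.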

Other observations

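Partners in one degradation step did not always move together on day 1; the groups of partners were chosen after the values were seen. For ganglioside breakdown, Gm2a was 1.28-fold lower than in control (limma adjusted p = 3.35e-06), while Hexa did not pass (ratio 1.02, 95% interval 0.981 to 1.06, adjusted p = 0.349). In the complex that holds beta-galactosidase, Glb1 was 1.33-fold higher (adjusted p = 5.45e-06), while its partners Ctsa (ratio 1.01, 95% interval 0.962 to 1.05, adjusted p = 0.836) and Neu1 (ratio 1.03, 95% interval 0.942 to 1.13, adjusted p = 0.519) did not pass. Reads in the exons that Ctsa shares with Pltp cannot be assigned. Of the hydrolases that saposins assist, Asah1 was higher and Arsa lower on day 1, and Psap itself was lower. Around ceramide, Asah1, which consumes it, was 1.63-fold higher and Smpd1, which makes it, 1.06-fold lower, a call lost without control replicate 3 (adjusted p = 0.106), day 1 replicate 2 (adjusted p = 0.0772) or day 1 replicate 3 (adjusted p = 0.0902). Of the enzymes that act on heparan sulfate, Ids was 1.22-fold higher and Idua 1.24-fold and Gusb 1.16-fold lower, and Naglu and Sgsh did not pass.

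Atp6v0c, which encodes the proteolipid ring of the proton pump, was listed at 0.989, 0.824 and 0.858 FPKM on day 3, 0.500, 0.519 and 0.570 FPKM on day 1 and 1.11, 0.718 and 0.980 FPKM in control, while Atp6v0d1 and Atp6v0b of the same sector stood above 60 FPKM in every library. The sources used here do not say how reads matching several gene copies were counted, so the listed level of Atp6v0c may not be its expression.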
